A study of Mus musculus with 4 samples.

Results

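The interferon response, IRF and STAT genes are the receptors, transcription factors, nucleic acid sensors and antiviral effectors of the interferon pathway. They were followed here in mouse round spermatids, which are haploid germ cells between meiosis and elongation. The members were 47 gene symbols chosen by name, and 46 of them were rows of the deposited table of 25965 genes. Ifi27 had no row under that symbol and was skipped. A row named Ifi27l1, which RefSeq gives as a synonym of Ifi27, ranged from 5.20 to 7.62 RPM over the libraries and was not counted as a member.

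The spermatids were sorted by flow cytometry from testis of ICR mice, an outbred stock, and their RNA was turned into libraries by Smart-seq2, which amplifies full-length cDNA (15 PCR cycles). The series compares 2 libraries of genotype Wfdc15a+/-, which serve as controls and already carry 1 altered allele, with 2 libraries of genotype Wfdc15a-/-. Both groups share the ICR background and received no treatment that the labels name. The sources used here do not give the age of the mice, the altered part of the gene or whether each library is a separate animal. The spread that p-values rest on may therefore be technical and holds for these samples alone. Wild-type controls, which the design text mentions, were not analysed here. Values given in a row of 4 always stand for heterozygous libraries 1 and 2 and then knockout-labelled libraries 1 and 2.

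The values are RPM, the reads of a gene scaled to the same total in every library, and whole reads could be recovered from them. The libraries held 5774112, 33853604, 21160061 and 11268909 reads, so heterozygous library 1 was the shallowest. A gene with 0 reads could be present at up to 0.520, 0.0886, 0.142 and 0.266 RPM, the levels of 3 reads, a bound for counting error only. Wfdc15a, the targeted gene, was still read in all libraries, at 121, 85.2, 82.6 and 59.5 RPM (limma log2 difference -0.53, adjusted p = 0.647), and since the altered part is not stated, this level does not check the labels. All 18 round spermatid markers were read in every library, and the sum of their levels was 14880 to 18687 RPM. None of the 18 passed the adjusted test, but 4, the late genes Tnp1, Tnp2, Prm1 and Prm2, lay below both heterozygous libraries in both knockout-labelled ones at an unadjusted p under 0.05. Of these, Tnp2 was at 393, 582, 173 and 127 RPM (limma adjusted p = 0.222). Of the other markers, 3 lay above both heterozygous libraries and 11 overlapped. Over all 15888 tested genes, 23.5% lay above and 15.0% below, and 297 were lower at an unadjusted p under 0.05. Acrv1, an acrosomal protein gene, was at 510 to 809 RPM. In such bulk samples, fewer cells of a type and less RNA per cell cannot be told apart.

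Interferons are secreted when a cell senses foreign nucleic acid. They bind paired receptor chains, whose JAK kinases phosphorylate STAT proteins, and STAT dimers, joined by IRF9 in the type I response, enter the nucleus and bind short promoter elements of the interferon-stimulated genes. In the testis most of this response is known from somatic cells, among them Sertoli cells, Leydig cells and macrophages, while germ cells are known as weak responders.

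Most members were silent or nearly so in the sorted spermatids, and a few were read strongly. Of the 46 members, 3 had no read in any library (Ifit1, Rsad2 and Rtp4), 23 had reads but stayed below the 1 RPM in 2 libraries that testing required, and 20 were tested. A read in all 4 libraries was found for 19 members, 11 were at 1 RPM or more in all 4, and 3 were at 10 RPM or more in all 4. In the whole table, 65.6% of genes had a read in all 4 libraries and 11.9% had none. These 3 were Stat4, Dhx58 and Eif2ak2, which together held 91.2% to 95.3% of the summed RPM of the members in each library, Stat4 alone 82.3% to 88.8%. RPM is not adjusted for gene length, and levels per kilobase follow below.

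**Figure D1:**
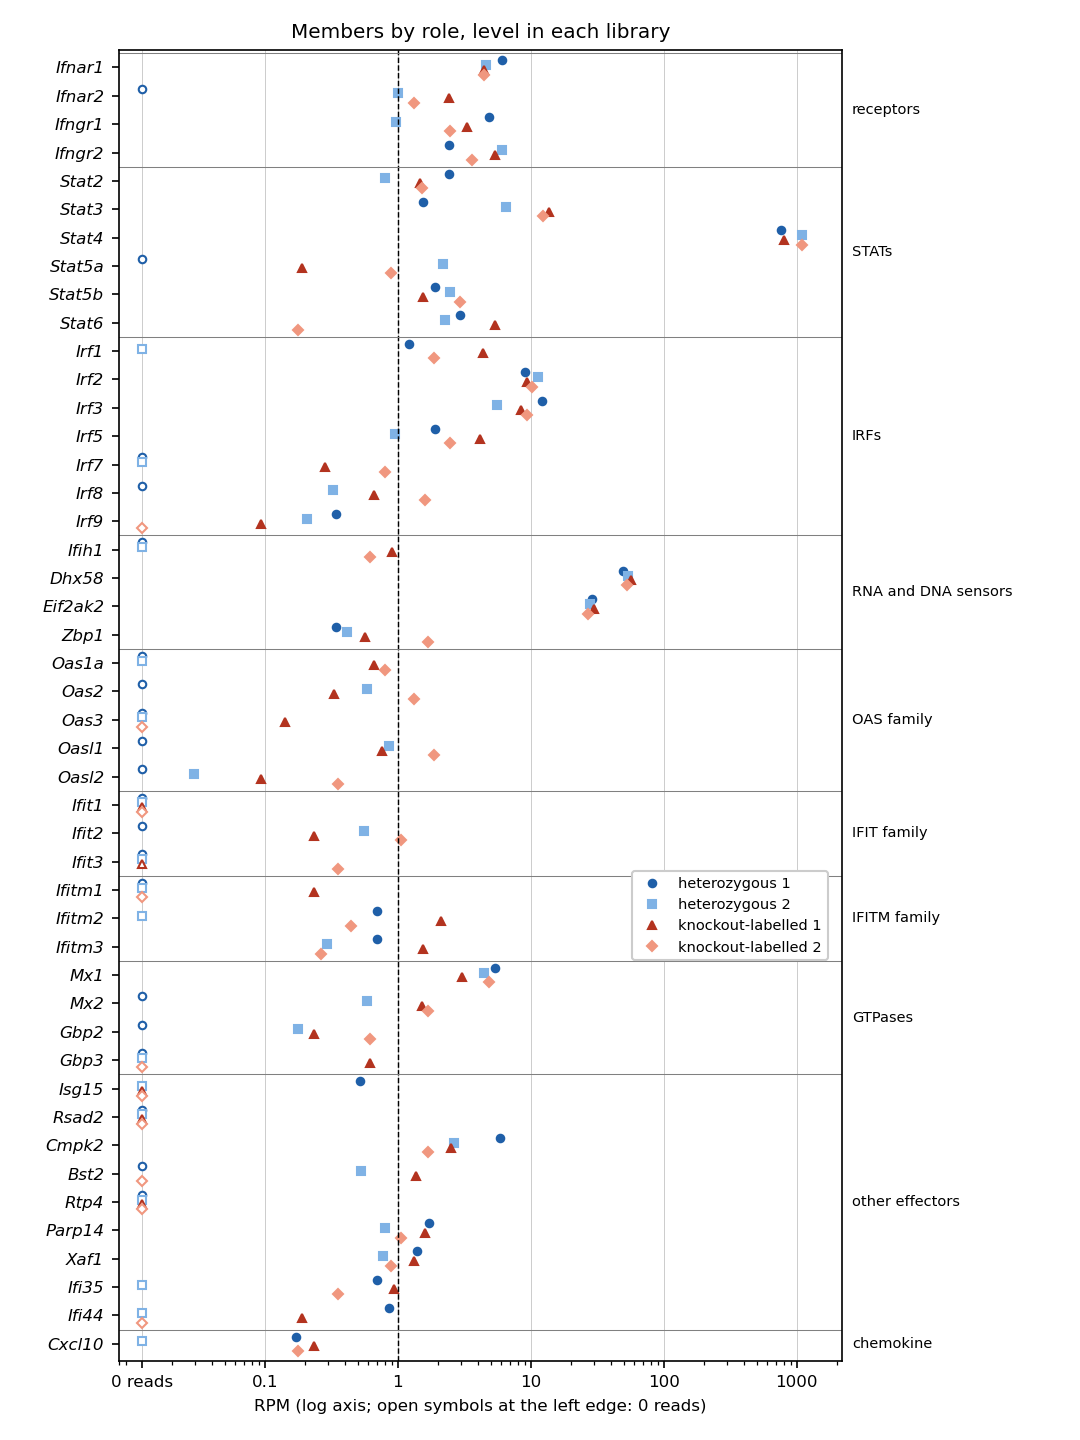
Level of each of the 46 members in RPM on a log axis, 1 symbol per library, grouped by role. Open symbols at the left edge stand for 0 reads and the dashed line for 1 RPM. Stat4 lies at 760 to 1101 RPM, Dhx58 and Eif2ak2 at 26.8 to 56.3 RPM, and most effectors lie at or near 0 reads.

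Among the STAT genes, which encode the transcription factors that cytokine receptors activate, Stat4 stood far above the rest. It lies on chromosome 1 of mm10 from 51987148 to 52107188 on the plus strand. Its protein is known as the factor that carries the interleukin-12 signal in lymphocytes, and it has also been described in mouse sperm. Stat4 was at 760, 1101, 805 and 1094 RPM, and per kilobase of exon it lay above 98.7% of the tested genes that have a length. Each group had a lower first library and a higher second one, the groups overlapped, and the means were 931 ± 241 against 950 ± 204 RPM (SD, n = 2; log2 difference 0.04, 95% confidence interval -0.47 to 0.55, limma adjusted p = 0.982). That small difference was negative with median-ratio scaling or voom, and without heterozygous library 1 or knockout-labelled library 2.

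Markers of lymphocytes and neutrophils were low, and some lay higher in the knockout-labelled libraries. Cd3e and Nkg7 stayed at or below 0.0887 RPM, and Cd79a had no read in any library. The 14 lymphocyte and neutrophil markers summed to 14.9 to 24.8 RPM in the heterozygous and 20.4 to 25.9 RPM in the knockout-labelled libraries, and Cd3d alone was at 6.03 to 18.9 RPM. Coro1a, an actin regulator gene of white blood cells, was at 0, 0, 4.58 and 6.74 RPM (limma adjusted p = 0.327), and Ptprc, which encodes CD45, at 1.21, 2.30, 5.43 and 4.08 RPM (adjusted p = 0.603). Of the 5 tested markers of this list, 3 lay above both heterozygous libraries, beside 23.5% of all tested genes, and 1, Cd3d, below, beside 15.0%. Among those above, Coro1a reached 1 RPM only in the knockout-labelled pair, so the filter for testing fixed its place. The part of such cells in the level of Stat4 was not tested. A gene listed on the opposite strand within Stat4, Gm3940, was at 1.06 to 1.65 RPM, and without strand its reads cannot be told from those of Stat4.

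The other STAT genes were low. Stat3, which carries signals of the interleukin-6 family, was at 1.56, 6.53, 13.8 and 12.3 RPM. Both knockout-labelled libraries lay above both heterozygous ones, although the heterozygous pair was itself far apart. The means were 4.04 ± 3.51 and 13.0 ± 1.002 RPM (SD, n = 2), a ratio of 3.23 (log2 difference 2.03, SE 0.63, limma adjusted p = 0.512), and the difference did not pass. It passed without heterozygous library 2 (log2 difference 3.06, adjusted p = 0.00229) and with no filter on low values (adjusted p = 0.0336), but was 0.996 without heterozygous library 1 (adjusted p = 0.344). Stat3 overlaps the end of Stat5a on the other strand, and reads there may belong to either.

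Stat2, the STAT protein specific to interferon signalling, was at 2.42, 0.798, 1.47 and 1.51 RPM. Stat5b, which serves growth hormone receptors, was at 1.91, 2.45, 1.56 and 2.93 RPM, and Stat6, which serves interleukin-4 receptors, at 2.94, 2.27, 5.39 and 0.177 RPM. Stat6 was highest in knockout-labelled library 1 and lowest in knockout-labelled library 2, and all of these overlapped between the groups. Stat5a, a near copy of Stat5b, had 0, 74, 4 and 10 reads and was not tested.

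The 4 receptor chain genes were all tested and all low. Ifnar1 and Ifnar2 encode the pair that binds type I interferons, and Ifngr1 and Ifngr2 the pair for interferon gamma. Ifnar1 was at 6.06, 4.61, 4.44 and 4.44 RPM, and both knockout-labelled libraries lay just below both heterozygous ones (limma log2 difference -0.25, standard error 0.50, adjusted p = 0.928). Without heterozygous library 1 the difference was -0.05. Ifnar2 lay the other way, with 0 reads in heterozygous library 1 and 1.004 RPM in library 2 against 2.41 and 1.33 RPM (log2 difference 2.18, SE 1.27, adjusted p = 0.675). It was 0.83 without heterozygous library 1, in which 0 reads allow 0.520 RPM, so its size leaned on that library. Ifnar2 overlaps the listed gene RP23-190G10.4, and some of its reads may be shared. Ifngr1 was at 4.85, 0.975, 3.31 and 2.48 RPM and Ifngr2 at 2.42, 6.03, 5.39 and 3.64 RPM, with the heterozygous libraries farther apart than the groups.

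The IRF genes encode factors that switch on interferons and their targets, and 4 of the 7 were tested while 3 had few reads. Irf2, a factor that mostly represses IRF1 targets, was at 9.01, 11.3, 9.40 and 10.2 RPM, and Irf3, the constitutive factor that sensors activate, at 12.1, 5.61, 8.41 and 9.41 RPM. The 2 genes overlapped between groups, with log2 differences of -0.04 and 0.11 (SE 0.40 and 0.47), of which that of Irf3 was negative with quantile normalization. Per kilobase of exon, averaged over the libraries, Irf3 was at 2.58 and Irf2 at 1.35 RPM, beside 243 for Stat4, 16.1 for Dhx58 and 5.54 for Eif2ak2.

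Irf1 and Irf5 were low and lay higher in the knockout-labelled group. Irf1, an early target of interferon gamma, was at 1.21, 0, 4.35 and 1.86 RPM (7, 0, 92 and 21 reads). Its log2 difference of 3.99 (SE 1.72, adjusted p = 0.602) rests on the value given to 0 reads in heterozygous library 2, the deepest library. It was 1.40 with log2(RPM + 1), 1.23 without heterozygous library 2, and 6.74 without heterozygous library 1, where it passed (adjusted p = 0.00438). Irf5, a factor of myeloid cells, was at 1.91, 0.945, 4.16 and 2.48 RPM, a ratio of means of 2.33 (log2 difference 1.26, SE 0.75, adjusted p = 0.680), and was 0.75 without heterozygous library 2. Irf1 overlaps the listed gene Gm17334 and Irf5 overlaps Tnpo3, so some of their reads may be shared.

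The IRF genes most tied to an active interferon response had few reads. Irf7, the amplifier of type I interferon production, had 0, 0, 6 and 9 reads and Irf8, a factor of macrophages and dendritic cells, 0, 11, 14 and 18 reads. Irf9, the partner of the STAT dimer, had 2, 7, 2 and 0 reads, or 0.346, 0.207, 0.0945 and 0 RPM. In knockout-labelled library 2, 0 reads allow 0.266 RPM, above heterozygous library 2, so the order of the groups is not settled. Irf9 overlaps the listed gene Rnf31, and some of its reads may be shared. Irf8 overlaps Gm20388, listed on the same strand at 2378 to 2986 RPM, and Irf7 overlaps the end of Phrf1, listed on the other strand at 41.4 to 49.0 RPM, so some of their few reads may be shared.

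Of the sensors, 2 were read at a level that hardly moved between libraries. Dhx58, on chromosome 11 from 100694884 to 100704271 on the minus strand, encodes LGP2, a helicase that binds viral RNA and tunes its relatives RIG-I and MDA5. It was at 49.0, 53.6, 56.3 and 52.4 RPM, or 51.3 ± 3.25 and 54.4 ± 2.72 RPM by group (SD, n = 2; log2 difference 0.08, 95% confidence interval -0.51 to 0.68, limma adjusted p = 0.961). Eif2ak2, on chromosome 17 from 78852564 to 78882573 on the minus strand, encodes PKR, the kinase that halts translation when it binds double-stranded RNA. It was at 28.7, 27.7, 30.1 and 26.8 RPM (log2 difference 0.01, 95% confidence interval -0.67 to 0.68, adjusted p = 0.998), a difference that was negative with quantile normalization and median-ratio scaling. On the log2 scale, the intervals leave room for a rise of up to 0.68, and for a fall of up to 0.51 for Dhx58 and 0.67 for Eif2ak2. Dhx58 overlaps Gm11547 on the other strand, listed at 14.6 to 20.1 RPM.

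Their inducible partners were close to silent. Ifih1, which encodes MDA5, had 0, 0, 19 and 7 reads, and Zbp1, a sensor of Z-form nucleic acid that can trigger necroptosis, had 2, 14, 12 and 19 reads. Ifih1 was at 0, 0, 0.898 and 0.621 RPM and Zbp1 at 0.346, 0.414, 0.567 and 1.69 RPM, and neither reached the level for testing. Both genes lay higher in both knockout-labelled libraries, on few reads. The share of all genes with so few reads that lay higher was not computed.

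The OAS, IFIT and IFITM families, which degrade viral RNA through RNase L, block its translation and stop viruses at membranes, held no tested member among 11. The 5 OAS genes summed to 0, 1.48, 1.98 and 4.35 RPM. Oas1a had 0, 0, 14 and 9 reads, Oasl2 0, 1, 2 and 4 reads, Oasl1 0, 29, 16 and 21 reads, Oas2 0, 20, 7 and 15 reads, and Oas3 3 reads in knockout-labelled library 1 only. Oas1a belongs to a cluster of near-identical copies among which reads can be misassigned. The 3 IFIT genes summed to 0, 0.561, 0.236 and 1.42 RPM, with Ifit1 at no read, Ifit3 at 4 reads in knockout-labelled library 2 only, and Ifit2 at 0, 19, 5 and 12 reads. The IFITM genes were read most in knockout-labelled library 1, where Ifitm2 had 45 and Ifitm3 33 reads, against 4, 0 and 5 and against 4, 10 and 3 reads in the other libraries. Ifitm1 had 5 reads, all in that library.

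Further effectors that mark an interferon response in most cells were likewise hardly read. Isg15, whose product is attached to other proteins like ubiquitin, had 3 reads in heterozygous library 1 and 0 in the others. Rsad2, which encodes viperin, and Rtp4 had none, although Cmpk2, the neighbour of Rsad2 on chromosome 12, was read in every library. Bst2, which encodes tetherin and holds budding virus at the cell surface, had 0, 18, 29 and 0 reads. Ifi35 had 4, 0, 20 and 4 reads, Ifi44 5, 0, 4 and 0, and Cxcl10, a chemokine gene that lies inside Art3 on the other strand, 1, 0, 5 and 2 reads. Gbp2 and Gbp3, large GTPases induced by interferon gamma, had 0, 6, 5 and 7 reads and 0, 0, 13 and 0 reads.

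The interferon-stimulated response element (ISRE) was found in promoters of silent members and, for a smaller share, of tested members. RefSeq promoters of build GRCm38.p6, each 250 bases before to 50 bases after a start, were matched by symbol for 39 of the 46 members. The ISRE core searched was GAAA, any 2 bases and GAAA again, on both strands, and overlapping matches count separately. It was found in 17 of the 39 members, beside 3.99% of the 27025 symbols in the promoter table. It was found in 4 of the 16 matched members that were tested, in 11 of the 21 with few reads and in both matched members with no read. The difference between these shares was not tested. The element of the interferon gamma pathway (GAS), searched as TTCNNNGAA, was found in 11 of 39, beside 9.55% of all symbols. A match describes the letters in this window and does not show that a factor binds there.

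The stretches below are shown because they set silent effectors beside members that are read. They are on the strand of the gene, 5′ to 3′, with ISRE cores of either strand in capitals. The first 8 are members with no or few reads and the last 4 are tested members.
Isg15: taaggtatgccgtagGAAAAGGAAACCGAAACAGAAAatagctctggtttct
Ifit1: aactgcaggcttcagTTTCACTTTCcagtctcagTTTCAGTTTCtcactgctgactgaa
Ifit3: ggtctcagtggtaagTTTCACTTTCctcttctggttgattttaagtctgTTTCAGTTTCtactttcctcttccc
Rsad2: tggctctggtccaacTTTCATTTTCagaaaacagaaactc
Cxcl10: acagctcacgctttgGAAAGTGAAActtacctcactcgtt
Oas1a: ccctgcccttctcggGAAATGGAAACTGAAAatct
Bst2: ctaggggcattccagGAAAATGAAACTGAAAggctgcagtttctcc
Gbp2: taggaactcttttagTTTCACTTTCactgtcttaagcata
Stat4: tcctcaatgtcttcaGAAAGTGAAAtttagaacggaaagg
Irf2: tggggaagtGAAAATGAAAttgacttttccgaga
Stat2: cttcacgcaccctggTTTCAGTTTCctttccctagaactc
Eif2ak2: agtccgccggGAAAACGAAAcagaagagaa

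The Isg15 stretch (chr4:156200860-156200911, minus strand) holds 3 overlapping cores, the first 78 bases before the start, and its gene had 3 reads in all. Ifit1 (chr19:34640770-34640828, plus strand) and Ifit3 (chr19:34583358-34583431, plus strand) hold 2 cores each, and Ifit1 had no read. The stretches of Rsad2 (chr12:26456548-26456587, minus strand), Cxcl10 (chr5:92349078-92349117, minus strand) and Gbp2 (chr3:142620589-142620628, plus strand) hold 1 core. Those of Oas1a (chr5:120907526-120907560, minus strand) and Bst2 (chr8:71537572-71537617, minus strand) hold 2 overlapping ones.

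Among the read members, the core of Stat4 (chr1:52008128-52008167, plus strand) lies 97 bases before a second annotated start inside the gene, and the promoter of its first start holds none. The cores of Irf2 (chr8:46739495-46739528, plus strand) and Stat2 (chr10:128270261-128270300, plus strand) lie 241 and 222 bases before their starts. That of Eif2ak2 (chr17:78882535-78882564, minus strand) begins at base 19 of the transcript. So the same letters, GAAAGTGAAA, stand in the window of Cxcl10, which had 8 reads in all libraries together, and in that of Stat4.

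A few effectors were read at low, measurable levels. Mx1, a dynamin-like GTPase that blocks influenza virus, was at 5.37, 4.43, 3.02 and 4.88 RPM, and the groups overlapped (log2 difference -0.34, SE 0.54). Its relative Mx2 had 0 reads in heterozygous library 1 and was at 0.591 RPM in library 2 against 1.51 and 1.69 RPM (log2 difference 2.40, SE 1.30, adjusted p = 0.649; 1.43 without heterozygous library 1 and 1.04 with log2(RPM + 1)). Cmpk2, a mitochondrial nucleotide kinase, was at 5.89, 2.66, 2.50 and 1.69 RPM, with both knockout-labelled libraries below both heterozygous ones. Its log2 difference was -0.95 (SE 0.67, adjusted p = 0.738) and -0.37 without heterozygous library 1. Parp14, an ADP-ribosyltransferase gene, was at 1.73, 0.798, 1.61 and 1.06 RPM. Xaf1, an apoptosis regulator gene, was at 1.39, 0.768, 1.32 and 0.887 RPM, and both overlapped between the groups.

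The comparison of the groups asks whether the interferon pathway differs between spermatids labelled knockout and heterozygous, since the title of the series names immune homeostasis. None of the 20 tested members passed limma's adjusted p of 0.05, and the share passing among all 15888 tested genes was 0%. Before adjustment, 2 members, Stat3 and Irf1, had a p under 0.05, as did 8.08% of all tested genes (1283). Both members were higher in the knockout-labelled group, beside 6.21% of all tested genes that were higher at that level. Voom on the recovered reads also passed 0 genes, with 1961 genes and 3 members at an unadjusted p under 0.05. Both knockout-labelled libraries lay above both heterozygous ones for 5 members (Stat3, Irf1, Irf5, Ifnar2 and Mx2), beside 23.5% of all tested genes, and below for 2 (Ifnar1 and Cmpk2), beside 15.0%. These counts are close to the background. Mx2 reached 1 RPM only in the knockout-labelled pair, so the filter for testing fixed its place above. The shares over all tested genes hold such genes too. The median log2 difference was 0.09 over the 20 members and 0.07 over all tested genes.

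**Figure D2:**
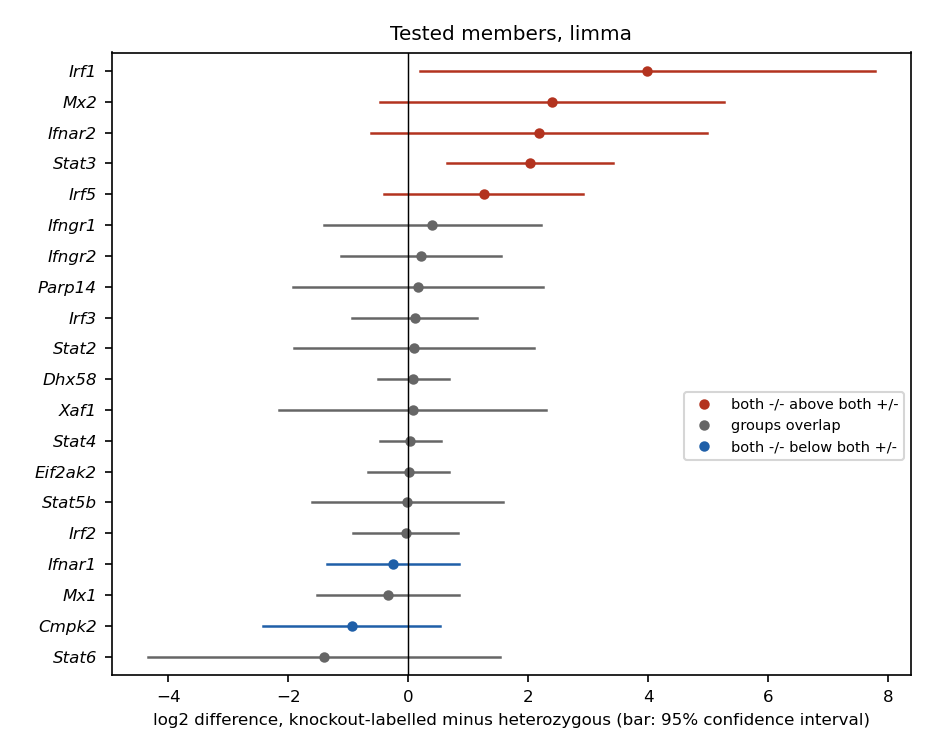
Log2 difference, knockout-labelled minus heterozygous, of the 20 tested members with its 95% confidence interval from limma, ordered by size and coloured by whether the groups overlap. The intervals of Stat3 (0.64 to 3.42) and Irf1 (0.19 to 7.79) do not include 0, and no member passed after adjustment.

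Detection of the nearly silent members differed between the libraries. It also differed over all genes with so few reads, but in another order of the libraries. Of the 23 members with few reads, 8 and 11 had a read in the heterozygous libraries and 21 and 16 in the knockout-labelled ones, and their summed level was 4.33, 6.17, 12.4 and 13.2 RPM. These are 34.8%, 47.8%, 91.3% and 69.6% of the 23, beside 39.2%, 65.4%, 77.7% and 62.7% of all 6996 genes of that class. Depth differs between the libraries too, and its part was not tested. The summed level of all genes of that class was not computed. With no read in both heterozygous libraries and reads in both knockout-labelled ones there were 3 members (Irf7, Ifih1 and Oas1a), beside 2.13% of all listed genes. That base is unlike the members with few reads, since 65.6% of listed genes had a read in all 4 libraries. The share within the class with few reads was not computed, so no excess can be read from the 3.

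Markers of other cells moved between the same libraries. Of the 21 macrophage markers, 20 were listed and 18 tested. Of the 18, 16 lay above both heterozygous libraries, beside 23.5% of all tested genes, and 0 below, beside 15.0%. Several, such as Cd68 (0, 0.0295, 4.02 and 2.75 RPM) and Cybb (0, 0.118, 11.2 and 5.24 RPM), reached 1 RPM only in the knockout-labelled pair. For such genes the filter for testing fixed a place above, so the count of 16 is in part set in advance. The summed level of the 20 was 48.5 and 34.9 RPM in the heterozygous and 438 and 151 RPM in the knockout-labelled libraries. Tyrobp had 0 reads in both heterozygous libraries. The 7 Leydig cell markers summed to 6.41 and 3.16 against 35.9 and 18.3 RPM, with 3 of the 4 tested ones above and 0 below. Among these 3, Insl3 also reached 1 RPM only in the knockout-labelled pair. The 10 Sertoli cell markers summed to 26.2 and 41.2 against 57.7 and 53.2 RPM. Of the 7 tested Sertoli cell markers, 4 lay above both heterozygous libraries and 0 below, beside the same shares of all tested genes. The 7 endothelial markers summed to 32.2 and 33.9 against 22.0 and 27.6 RPM. The part of these cells in the levels of the members was not tested. Knockout-labelled library 1, which had the highest macrophage sum, was also the highest of the 4 for Dhx58 (56.3 RPM) and Eif2ak2 (30.1 RPM), which hardly moved between libraries. It was the highest for Stat3 (13.8 RPM), Irf1 (4.35 RPM), Irf5 (4.16 RPM) and Ifnar2 (2.41 RPM) too. In these genes both knockout-labelled libraries lay above, so 1 of those 2 libraries had to be the highest. The share of all tested genes that were highest in knockout-labelled library 1 was not computed. For Mx2 knockout-labelled library 1 was at 1.51 RPM, below knockout-labelled library 2 (1.69 RPM). For Stat4 it was at 805 RPM, below heterozygous library 2 (1101 RPM) and knockout-labelled library 2 (1094 RPM).

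**Figure D3:**
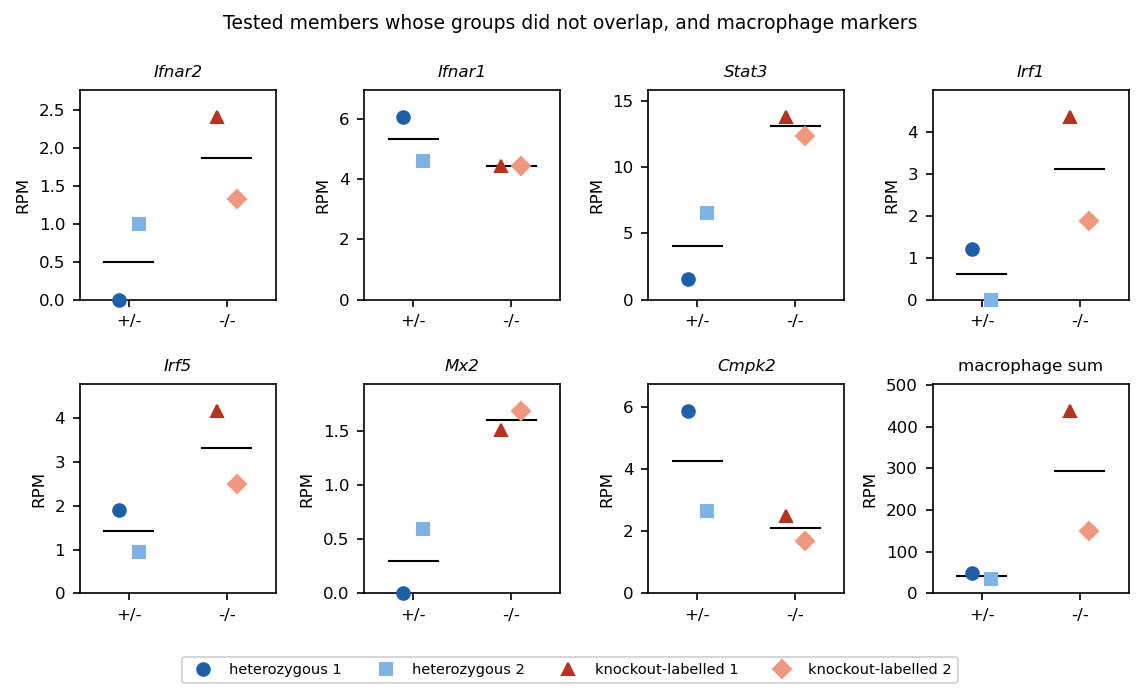
RPM in each library for the 7 tested members whose groups did not overlap and, in the last panel, the summed RPM of the macrophage markers. Short lines are group means of 2 libraries. Stat3 is at 1.56 and 6.53 against 13.8 and 12.3 RPM, and the macrophage sum at 48.5 and 34.9 against 438 and 151 RPM.

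The other genes of the pathway came from a list of 88 symbols, of which 78 were listed and 37 tested, and none of these passed limma's adjusted p of 0.05 (smallest adjusted p = 0.544). At an unadjusted p under 0.05, 3 were higher, beside 6.21% of all tested genes, and 0 lower. Of the 37, 10 lay above both heterozygous libraries, beside 23.5% of all tested genes, and 2 below, beside 15.0%. Their median log2 difference was 0.10, beside 0.07 over all tested genes, and the counts of higher genes are near the background. Among the genes above, Psmb8 and Trim25 reached 1 RPM only in the knockout-labelled pair, so the filter for testing fixed their place. The ligands were the emptiest class. Of the 16 interferon genes listed, 11 had no read in any library, Ifnb1 and Ifng among them, and the other 5, related Ifna copies, had 1 or 2 reads each in knockout-labelled library 2 only.

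The kinases that start the cascade were all tested. Jak1, which serves both interferon receptors, was at 7.79, 8.09, 16.6 and 14.3 RPM, with the knockout-labelled pair higher (log2 difference 0.96, SE 0.38, adjusted p = 0.591). Jak3, a kinase of lymphoid cytokine receptors, was at 10.9, 7.15, 26.6 and 16.2 RPM (log2 difference 1.23, SE 0.41, adjusted p = 0.544), but it overlaps Insl3, the Leydig cell hormone gene, which was at 0.693, 0.650, 20.0 and 7.54 RPM. Tyk2 was at 5.46 to 8.18 RPM and Jak2 at 0 to 2.63 RPM, each with overlapping groups. In the sensing arm, Ddx58, which encodes RIG-I, was at 0.693, 1.18, 3.73 and 4.17 RPM (log2 difference 2.12, SE 0.75, adjusted p = 0.565), and its adaptor gene Mavs at 1.04, 0.295, 1.37 and 1.86 RPM. Both genes lay above in both knockout-labelled libraries, while Traf3 and Tbk1, at 4.85 to 11.8 RPM, overlapped.

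Among the genes of proteins that restrain the pathway, Pias2 was read at a level near that of Stat4. Per kilobase of exon, Pias2 was at 260, Pias1 at 61.5 and Pias4 at 45.7 RPM, beside 243 for Stat4. The PIAS proteins bind STATs and attach SUMO to proteins. Pias2 was at 1011, 903, 864 and 953 RPM, Pias1 at 386, 435, 432 and 427 RPM and Pias4 at 153, 189, 178 and 156 RPM, while Pias3 stayed at 0.693 to 2.48 RPM. The 3 abundant ones differed little between the libraries. Ptpn1 and Ptpn2, phosphatases that act on JAK kinases and STATs, were at 48.7 to 57.9 RPM and 30.2 to 58.4 RPM. In contrast, the brakes that interferon itself induces were low or silent, with Socs1 at 0, 14, 12 and 3 reads, Usp18 at 2 reads in knockout-labelled library 2 only, and Socs3 at 1.06 to 2.50 RPM. Of the 11 tested brakes, 3 lay above both heterozygous libraries (Ptpn6, Ptpn11 and Pias3), beside 23.5% of all tested genes, 0 below, and 8 overlapped. Ptpn6, a phosphatase gene of blood cells, was at 1.73, 1.68, 3.02 and 3.37 RPM (adjusted p = 0.755).

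Among the genes of ISG15 conjugation and the remaining effectors, a few were read strongly. Herc6, the ligase that attaches ISG15 in mice, was at 201, 123, 88.3 and 161 RPM, although Isg15 itself had 3 reads and its activating enzyme gene Uba7 was read in knockout-labelled library 1 only, with 48 reads. Isg20, an exonuclease gene, was at 63.4, 96.4, 98.3 and 60.7 RPM. The groups overlapped for Herc6 and Isg20 alike. Trim25, a ubiquitin ligase gene that also serves RIG-I, was at 0.173, 0.502, 1.09 and 1.33 RPM, with the knockout-labelled pair higher (adjusted p = 0.729). Of the 15 tested remaining effectors, 2 lay above both heterozygous libraries (Psmb8 and Lgals3bp), beside 23.5% of all tested genes, and 2 below (Tor3a and Tap1), beside 15.0%. Psmb8, like Trim25, was tested only through its levels in the knockout-labelled pair. Tap1, a peptide transporter subunit gene, was at 11.9, 12.1, 11.2 and 7.28 RPM. Psmb8, an immunoproteasome subunit gene, was at 0, 0.354, 1.47 and 1.69 RPM (log2 difference 2.74, SE 1.36, adjusted p = 0.628), and Tor3a, a torsin gene, at 1.73, 1.80, 0.331 and 1.24 RPM (log2 difference -1.46, adjusted p = 0.749).

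**Figure D4:**
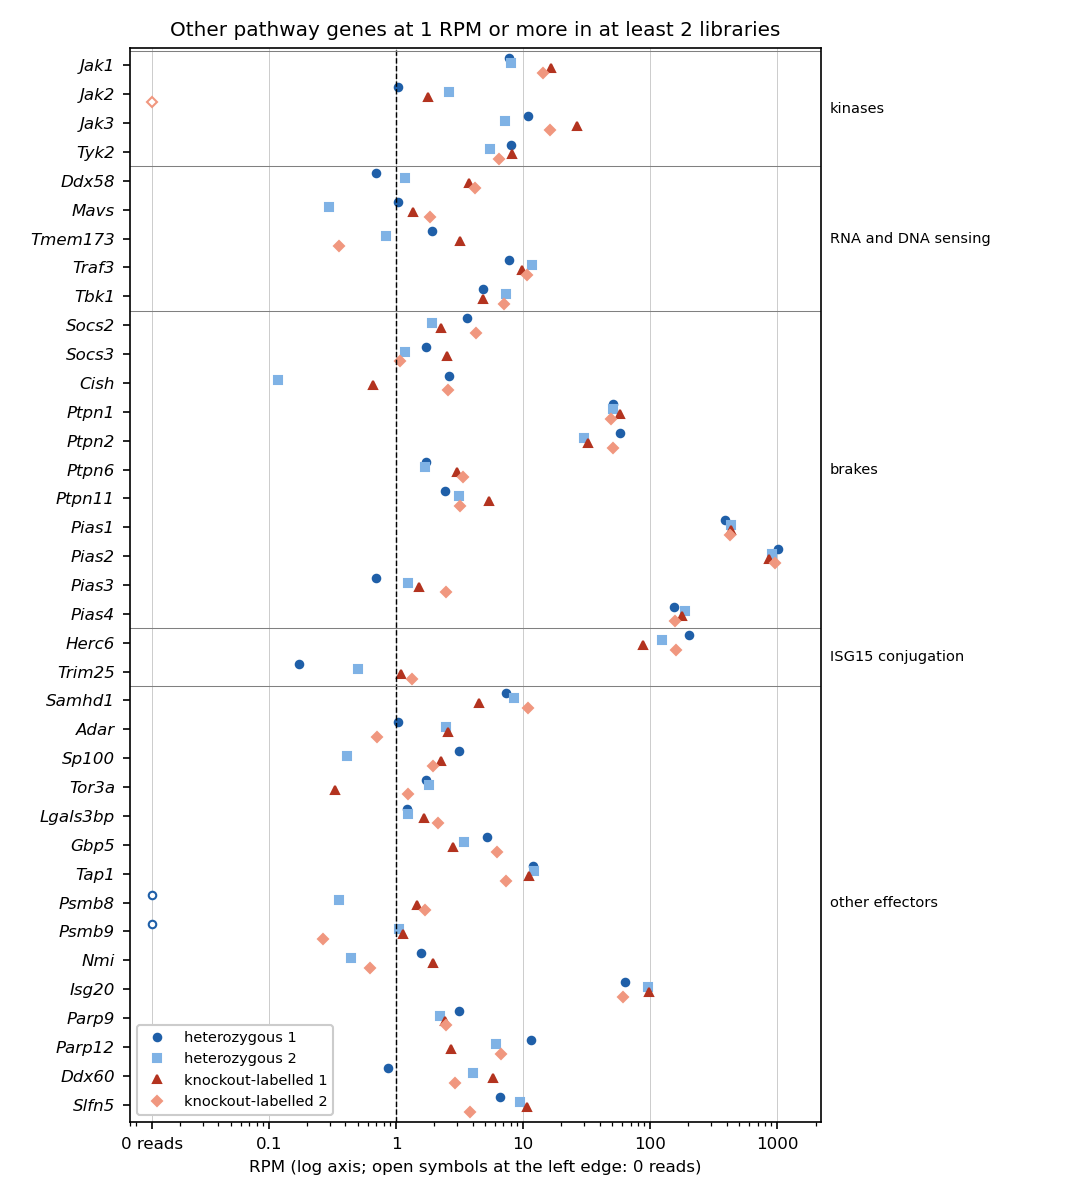
RPM in each library on a log axis for the 37 tested genes of the wider pathway list, grouped by role, with open symbols at the left edge for 0 reads and a dashed line at 1 RPM. Pias2, Pias1, Pias4 and Herc6 lie at 88.3 RPM or more in every library, and Jak1, Jak3 and Ddx58 lie higher in both knockout-labelled libraries.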

How the data were processed

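The authors deposited log2 RPM values of 4 libraries with mm10 coordinates, scaled to the total of each library and not adjusted for gene length. The submitters' processing notes list HISAT2 2.1.0, mm10, Trim Galore 0.6.6 and FastQC 0.11.8. The counting step, annotation and filters were not given in the sources used here. Smart-seq2 keeps no strand and adds no molecular identifiers. The lowest deposited value was taken as 0.9 of a read, and 99.7% to 100.0% of the other values were then whole reads within 0.01. The test was limma 3.58.1 (R 4.3.3) on the deposited log2 scale for the 15888 genes that reached 1 RPM in 2 libraries, two-sided, with a mean-variance trend and Benjamini-Hochberg adjustment over all genes tested. Levels per kilobase used GENCODE M21 exons, and promoters came from RefSeq (GRCm38.p6). Every member is accounted for by role. Per-gene statistics are given for tested members whose groups did not overlap and for Stat4, Dhx58, Eif2ak2, Irf2, Irf3 and Mx1, which were chosen after their values were seen, as were the promoter stretches and the genes of the wider list whose groups overlap or that were not tested. The members, lists and tests were chosen with earlier results of these data known. The code was tested on simulated data.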

Additional observations from a re-analysis of the deposited data

How the results depend on the processing

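With 2 libraries per group and 5774112 reads in the shallowest, members at or under 3 reads could not be separated from absence. The count of read members fell from 43 with a read in any library to 19 with a read, 17 with 3 reads and 11 with 1 RPM in all 4. Passing genes numbered 180 with no filter (1 member, Stat3), 1 with log2(RPM + 1), 66 with a replicate block (0 members), 0 with the other settings run on all 4 libraries, and 0 to 558 when 1 library was left out (0 to 1 member). Leaving out a library takes the spread from the remaining pair and assumes that the lone library varies like it. The title numbers are not said to mark a shared animal, litter or day. Deviations of equal numbers correlated at -0.0761 across genes, which cannot settle pairing with 2 libraries per group. The block changed no member call. Members above both heterozygous libraries numbered 13 with no filter, 1 with a filter of 5 RPM and 6 to 10 with 1 library left out, an alternative chosen after seeing the data. Members below numbered 0 with 5 RPM, 4 with quantile normalization and 4 to 8 with 1 library left out. The shares over all genes were not computed at these settings, so these counts above and below do not describe the members. With 1 library left out, 2 libraries are set against 1, and groups of any gene then overlap less often. Differences of 12 of the 20 tested members changed sign under some setting, that of Stat6 (-1.40) the largest of them, and the cause was not tested. With quantile normalization Stat2 was at -0.43, Irf3 at -0.077, Parp14 at -0.48, Eif2ak2 at -0.0070, Xaf1 at -0.66 and Ifngr2 at -0.045. Median-ratio scaling gave -0.024 for Stat4 and -0.053 for Eif2ak2, voom -0.052 for Stat4 and -0.13 for Ifngr2, and log2(RPM + 1) 0.0020 for Stat5b. With 1 library left out, differences ranged from -0.71 to 0.90 for Stat2, -0.23 to 0.30 for Stat4, -0.47 to 0.44 for Stat5b, -3.87 to 1.06 for Stat6, -0.20 to 0.12 for Irf2, -0.45 to 0.66 for Irf3, -0.69 to 0.0010 for Mx1, -0.40 to 0.71 for Parp14, -0.075 to 0.090 for Eif2ak2, -0.35 to 0.50 for Xaf1, -0.76 to 1.56 for Ifngr1 and -0.44 to 0.87 for Ifngr2.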
